A study of Bos taurus with 9 samples.

Results

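A set of 10 genes for fatty acid synthesis, desaturation, elongation and binding was followed in bovine uterine gland fragments cultured in Matrigel. The genes were FASN, SCD, FADS1, FADS2, ELOVL6, ELOVL5, ELOVL2, HACD4, FABP3 and FABP5, and all 10 were found by symbol among the 20679 genes listed. They were chosen by symbol with the Log2FC and the calls of the EGF comparison, MAT vs CYST, known, and ELOVL2, FABP3 and HACD4 were among the genes the study itself had picked as differentially expressed with EGF. No numerical limit for the choice was recorded. Levels and differences that involve EGF are therefore given for the 10 genes as a description. No p-value of theirs is printed for those comparisons, and calls at the adjusted p threshold are counted beside the background of all genes without being used as support.

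Fatty acid synthase (FASN) builds palmitate in the cytosol from acetyl and malonyl units. Membrane enzymes of the endoplasmic reticulum then lengthen fatty acids in cycles in which an ELOVL protein makes the condensation and a HACD protein removes water, while SCD and the FADS enzymes insert double bonds. Fatty acid binding proteins (FABPs) carry the products through the cytosol. In the endometrium, arachidonic acid, which mammals make from linoleic acid with FADS2, ELOVL5 and FADS1, is the source of prostaglandins.

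RNA was sequenced on day 5 from 9 cultures of uterine gland fragments, 3 in each group. All cultures were embedded in Matrigel, a basement membrane extract, in DMEM/F12 with bovine serum albumin, ascorbic acid, transferrin, sodium selenite and insulin. The CYST group received no EGF and formed cysts, the MAT group received EGF and formed gland-like structures (UG-LIKE), and the MAT + COL group received EGF in Matrigel that also held type I collagen. The uteri came from an abattoir, at the luteal stage, according to the methods of the study. The sample labels number the replicates 1 to 3 in each group without naming an animal, and the study speaks of the libraries as coming from individuals without tying a number to an animal. The p-values therefore measure the spread between these samples, which may in part be technical.

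The library totals ran from 6568968 to 17948600 counted reads. Epithelial markers (EPCAM, CDH1, keratins 8, 18 and 19, CLDN3 and CLDN4) summed to between 17886 and 19223 TPM (a level corrected for transcript length and library depth) in the CYST libraries. The same sum lay between 28455 and 44413 TPM in MAT and between 29519 and 39516 TPM in MAT + COL, without overlap with CYST. Keratins 8 and 19 made up most of it. Of the 7 markers, 6 had a Log2FC above 0 in MAT vs CYST and 5 in MAT + COL vs CYST. None had an adjusted p under 0.05 in either (edgeR). With the replicate number as a block 3 and 1 did, all higher. CLDN4 had a mean of 852.1 TPM in CYST and 709.5 TPM in MAT. The 5 gland markers (FOXA2, PAX8, SOX17, ESR1 and PGR) summed to between 42.8 and 99.7 TPM in CYST, between 56.2 and 77.4 TPM in MAT and between 53.2 and 83.2 TPM in MAT + COL. PAX8 and ESR1 made up most of these sums, and SOX17 had at most 11 counts in any library. The fragments also held RNA of other cells. The 7 stromal markers summed to between 1986 and 4486 TPM in CYST, between 738.5 and 2946 TPM in MAT and between 1870 and 3439 TPM in MAT + COL. In bulk RNA of this kind, fewer cells of a type and less RNA per cell cannot be told apart.

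Of the 10 genes, ELOVL2 and FABP3 were far lower in both EGF groups than in CYST and HACD4 was higher, while the other 7 differed between group means by less than 1 on the log2 scale. In MAT vs CYST, 3 of the 10 had an adjusted p under 0.05 (edgeR's quasi-likelihood test), where 1.79% of the 12074 genes tested did. The same 3 met the full criteria for DEGs, which also required a Log2FC beyond 1 in either direction and more than 1 TPM in each library, and which 1.45% of genes met. The criteria follow the study, which reported more DEGs in this comparison than the 175 found here, so the share is not the study's. In MAT + COL vs CYST the 3 genes were again called, where 1.49% of 12509 genes were called and 1.13% were DEGs. Both comparisons used the same CYST libraries, and nothing is read from these counts because the EGF difference was known when the genes were named. The plot of TPM by library shows the 3 genes beside the other 7.

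**Figure D1:**
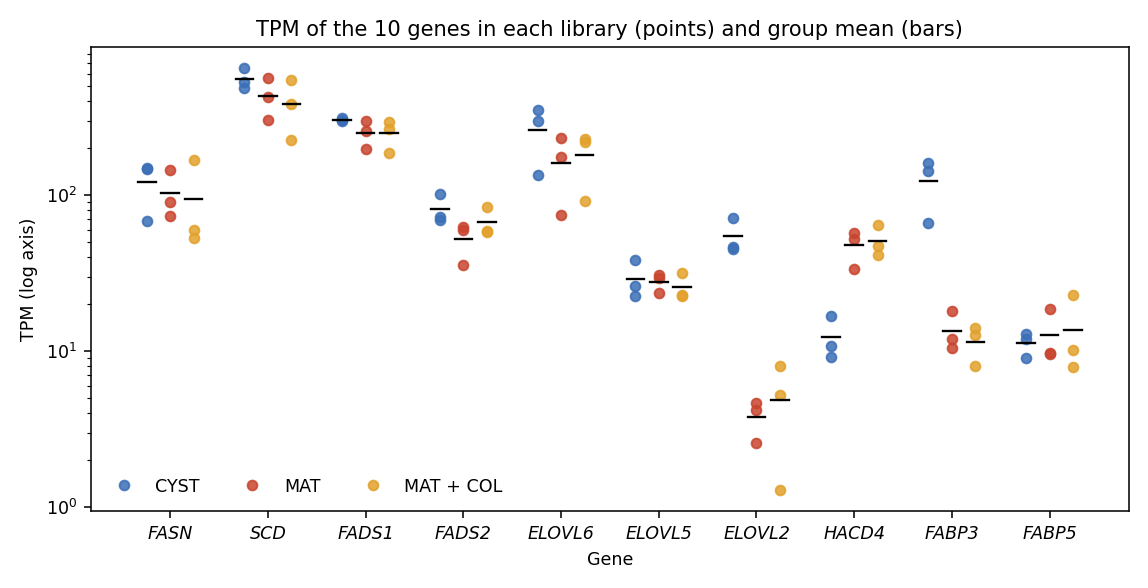
TPM of the 10 genes on a log axis, with 1 point per library and a bar at the group mean (n = 3 per group). ELOVL2 and FABP3 lie lower in every MAT and MAT + COL library than in any CYST library, HACD4 lies higher, and the other 7 genes mostly overlap.

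FASN, which makes palmitate, was read at 146.8, 149.5 and 68.2 TPM in the CYST libraries (replicates 1, 2 and 3). In MAT it had 90.6, 73.3 and 144.6 TPM, and in MAT + COL 59.5, 53.4 and 168.8 TPM. The groups overlapped, because replicate 3 was the lowest of the CYST libraries and the highest of the libraries in both EGF groups. The Log2FC of MAT vs CYST was -0.20 (SE 0.33) and that of MAT + COL vs CYST was -0.36 (SE 0.50). Between libraries of the same number, the log2 ratio of FASN in MAT to CYST was -0.70, -1.03 and 1.08.

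SCD, which inserts the double bond that turns stearate into oleate, was the most abundant of the 10 genes in every group. Its TPM was 649.4, 529.4 and 488.0 in CYST, 302.0, 427.6 and 563.4 in MAT, and 227.4, 381.8 and 546.0 in MAT + COL. Replicates 1 and 2 were lower in both EGF groups than in the CYST library of the same number, and replicate 3 was higher. The Log2FC was -0.37 (SE 0.26) in MAT vs CYST and -0.56 (SE 0.35) in MAT + COL vs CYST. SCD5, its paralog, had at most 33 counts in any library.

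FADS1, a desaturase of the arachidonic acid route, had 298.8, 303.1 and 312.4 TPM in CYST. It had 197.6, 297.8 and 258.7 TPM in MAT and 185.5, 296.3 and 266.8 TPM in MAT + COL. The CYST libraries were close together and lay above both EGF groups, but by a small margin over replicate 2. The Log2FC was -0.30 (SE 0.22) in MAT vs CYST and -0.35 (SE 0.25) in MAT + COL vs CYST.

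FADS2, which acts earlier in the same route, was read at 73.0, 68.8 and 101.8 TPM in CYST, at 35.5, 60.1 and 62.6 TPM in MAT and at 58.4, 84.2 and 59.2 TPM in MAT + COL. All MAT libraries were under all CYST libraries, whereas MAT + COL overlapped CYST. The Log2FC was -0.66 (SE 0.32) in MAT vs CYST and -0.37 (SE 0.28) in MAT + COL vs CYST. The ratio of FADS1 to FADS2 in TPM ran from 3.07 to 4.4 in CYST, from 4.13 to 5.57 in MAT and from 3.18 to 4.51 in MAT + COL, so the groups overlapped. The genes are neighbours on chromosome 29 of ARS-UCD2.0, FADS1 at 40244088 to 40258240 on the minus strand and FADS2 at 40350407 to 40387556 on the plus strand. FADS3 (40385474 to 40407856, minus strand) overlaps the end of FADS2 by 2083 bases, and the sources used here do not state whether strand was used in counting, so reads from that stretch cannot be assigned with certainty.

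ELOVL6, which lengthens palmitate to stearate, was the third most abundant of the 10 in every group. It was read at 298.7, 351.6 and 134.9 TPM in CYST, at 176.3, 233.4 and 74.4 TPM in MAT and at 228.8, 220.2 and 91.4 TPM in MAT + COL. The groups overlapped, yet MAT was lower than CYST at each of the 3 replicate numbers, with log2 ratios of -0.76, -0.59 and -0.86. The Log2FC of MAT vs CYST was -0.67 (SE 0.42). With the replicate number as a block it was -0.75 (SE 0.18), and ELOVL6 was then the 4th of the 10 genes with an adjusted p under 0.05, where 10.6% of all genes passed. In MAT + COL vs CYST the Log2FC was -0.58 (SE 0.38), and ELOVL6 was not called with or without the block.

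ELOVL5, which lengthens polyunsaturated fatty acids in the arachidonic acid route, had 26.1, 38.2 and 22.5 TPM in CYST, 23.5, 30.7 and 29.5 TPM in MAT, and 23.0, 22.5 and 31.5 TPM in MAT + COL. The ranges of the groups overlapped throughout. Its Log2FC was -0.04 (SE 0.22) in MAT vs CYST and -0.21 (SE 0.25) in MAT + COL vs CYST.

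ELOVL2, which lengthens longer polyunsaturated fatty acids on the way to docosahexaenoic acid, had 71.7, 46.6 and 45.0 TPM in CYST. In MAT it had 4.66, 2.57 and 4.19 TPM, and in MAT + COL 8.01, 5.22 and 1.28 TPM. Every EGF library was far under every CYST library. The counts behind the low values were 55, 81 and 99 in MAT and 244, 164 and 38 in MAT + COL, against 1088, 1372 and 881 in CYST. The Log2FC was -3.86 (SE 0.32) in MAT vs CYST, the 25th lowest of the 12074 genes tested, and -3.59 (SE 0.56) in MAT + COL vs CYST. Within MAT + COL, replicate 3 stood lowest, and ELOVL2 kept an adjusted p under 0.05 in MAT + COL vs CYST in only 1 of 6 fits with 1 library left out, the fit without that library (Log2FC -3.16). ELOVL2 lies on chromosome 23 (45206982 to 45256401, plus strand), as does ELOVL5 (25400733 to 25474020, minus strand), but the genes are not adjacent.

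HACD4, a dehydratase of the elongation cycle, was the only one of the 3 that was higher with EGF. Its TPM was 16.9, 9.12 and 10.8 in CYST, 52.3, 57.0 and 33.7 in MAT, and 64.0, 41.3 and 47.2 in MAT + COL. No EGF library came near the CYST range. The Log2FC was 1.94 (SE 0.31) in MAT vs CYST and 1.98 (SE 0.28) in MAT + COL vs CYST. Among all genes tested it ranked 216th highest in MAT vs CYST and 205th highest in MAT + COL vs CYST. When 1 library at a time was left out, HACD4 kept an adjusted p under 0.05 in only 1 of 6 fits in each comparison (without MAT replicate 3 and without MAT + COL replicate 3), with a Log2FC between 1.76 and 2.21 in MAT vs CYST.

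FABP3, the heart type binding protein, had 142.4, 66.0 and 160.0 TPM in CYST. It had 10.4, 11.9 and 18.0 TPM in MAT and 12.6, 14 and 8.0 TPM in MAT + COL. All 6 EGF libraries were well under the lowest CYST library, and the CYST libraries were themselves uneven. The Log2FC was -3.23 (SE 0.44) in MAT vs CYST and -3.53 (SE 0.43) in MAT + COL vs CYST, the 32nd and the 23rd lowest of the genes tested. It kept the call in 3 of 6 fits with 1 library left out in each comparison, losing it without CYST replicate 1 and without replicates 1 or 2 of the EGF group.

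Smooth muscle markers are given beside FABP3, although it is named for heart muscle and not for smooth muscle. MYH11, DES, ACTG2 and CNN1 summed to between 65.9 and 105.7 TPM in CYST, between 26.9 and 52.4 TPM in MAT and between 35.4 and 55.8 TPM in MAT + COL, so both EGF groups were lower without overlap. In each EGF comparison 3 of the 4 markers had a Log2FC under 0, MYH11 being the exception with 0.07 (edgeR, adjusted p = 0.918) in MAT vs CYST. ACTG2, the most abundant of them, had a Log2FC of -1.2 (adjusted p = 0.179, and 0.0839 with the block) in MAT vs CYST and -1.16 (adjusted p = 0.0965, and 0.0312 with the block) in MAT + COL vs CYST. DES had at most 1.05 TPM in any library.

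The summed TPM of the stromal markers (COL1A1, COL1A2, COL3A1, DCN, LUM, PDGFRA and PDGFRB) was 1986, 2783 and 4486 in CYST replicates 1, 2 and 3, 1599, 738.5 and 2946 TPM in MAT, and 1870, 1983 and 3439 TPM in MAT + COL. The groups overlapped, but both EGF sums were under the CYST sum at each of the 3 numbers. All 7 stromal markers had a Log2FC under 0 in MAT vs CYST (median -0.71), where none was called without the block and DCN was called with it (edgeR, adjusted p = 0.0252). In MAT + COL vs CYST 6 of 7 were under 0, and in MAT + COL vs MAT all 7 were above 0, with none called.

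Of the adipocyte markers, LEP and CIDEC were at 0 counts in all 9 libraries and PLIN1 had at most 26 counts. LPL had 0.07 to 1.5 TPM in CYST, 2.6 to 4.89 TPM in MAT and 0.36 to 4.52 TPM in MAT + COL, with a Log2FC of 2.31 (SE 0.81, edgeR, adjusted p = 0.160) in MAT vs CYST. The part of smooth muscle, stromal or adipose cells in the differences of FABP3, ELOVL2 and HACD4 was not tested.

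FABP5, the epidermal type, was low in every group, at 12, 9.09 and 12.8 TPM in CYST, at 9.75, 9.57 and 18.5 TPM in MAT and at 10.2, 7.86 and 23.0 TPM in MAT + COL. Replicate 3 was the highest in each group and the groups overlapped. Its Log2FC was 0.14 (SE 0.40) in MAT vs CYST and 0.22 (SE 0.49) in MAT + COL vs CYST. The ratio of FABP3 to FABP5 in TPM was between 7.25 and 12.5 in CYST, between 0.974 and 1.25 in MAT and between 0.348 and 1.78 in MAT + COL.

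**Figure D2:**
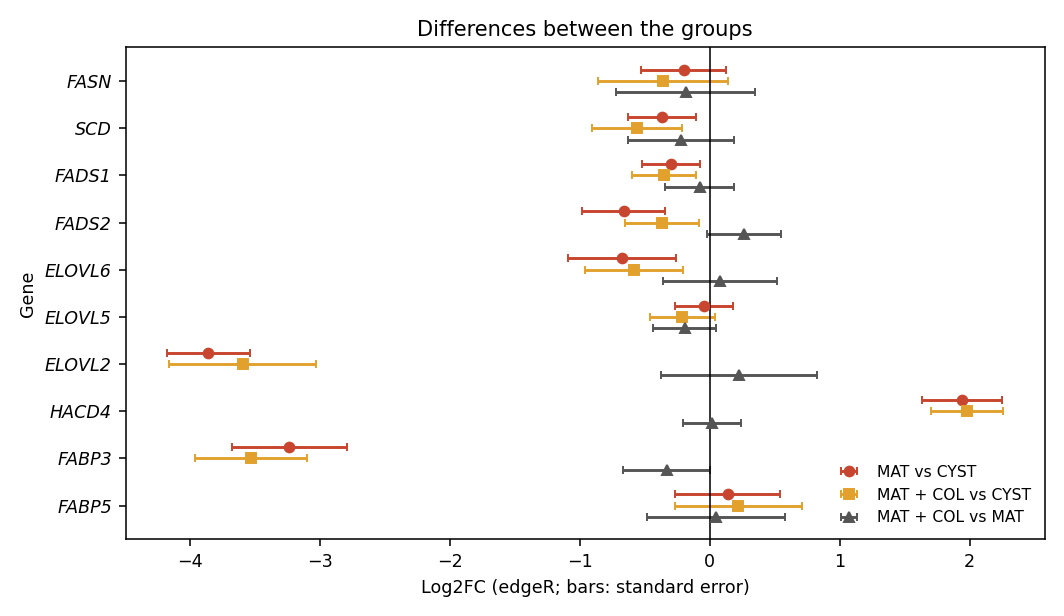
Log2FC (edgeR) of the 10 genes in the 3 comparisons, with bars for the standard error (3 libraries per group). ELOVL2 and FABP3 lie near -3 to -4 and HACD4 near 2 in both EGF comparisons, and all 10 genes lie between -0.33 and 0.26 in MAT + COL vs MAT.

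Over the 10 genes, 8 had a Log2FC under 0 in each EGF comparison. The median was -0.33 in MAT vs CYST and -0.36 in MAT + COL vs CYST, against 0.01 and 0.04 over all genes tested. Without ELOVL2, FABP3 and HACD4, the other 7 ranged from -0.67 to 0.14 in MAT vs CYST with a median of -0.30. The TPM of MAT did not overlap that of CYST for 5 of the 10 genes (ELOVL2, FABP3, HACD4, FADS1 and FADS2), where this held for 23.7% of all genes tested. For MAT + COL it was 4 genes, the same without FADS2, where it held for 24.7%. The summed TPM of the 10 genes was 1736, 1571 and 1357 in CYST, 902.6, 1204 and 1208 in MAT, and 877.3, 1127 and 1243 in MAT + COL. Each EGF sum lay under each CYST sum. These sums include ELOVL2 and FABP3, chosen with their EGF difference known, so nothing is read from the separation. In replicate 3, FABP3 alone had 160.0 TPM in CYST and 8.0 TPM in MAT + COL. SCD and FADS1 together made up between 47.1% and 68.1% of the sum over the 9 libraries.

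The order of the levels, per transcript length, changed mainly through the 3 genes. In CYST the mean TPM fell from SCD through FADS1, ELOVL6, FABP3, FASN, FADS2, ELOVL2, ELOVL5 and HACD4 to FABP5. The libraries of neighbours in that order overlapped except between SCD and FADS1, between ELOVL2 and ELOVL5, and between ELOVL5 and HACD4. In MAT the order was SCD, FADS1, ELOVL6, FASN, FADS2, HACD4, ELOVL5, FABP3, FABP5 and ELOVL2. Neighbours overlapped there between FADS1 and ELOVL6, ELOVL6 and FASN, FADS2 and HACD4, and FABP3 and FABP5. In MAT + COL the order was that of MAT with FABP5 ahead of FABP3, and only HACD4 and ELOVL5 did not overlap among neighbours. ELOVL2 thus stood 7th of 10 without EGF and last in both EGF groups.

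The families of these genes showed how much of each enzyme class the members made up. In the ELOVL family, ELOVL6 held 49.7% ± 10.2 of the summed TPM in CYST, 43.8% ± 14.9 in MAT and 46.7% ± 14.4 in MAT + COL (SD, n = 3). ELOVL2 held 11% ± 2.78 in CYST, 1.14% ± 0.48 in MAT and 1.2% ± 0.69 in MAT + COL. ELOVL1, which lengthens saturated very long chains, was close to even, with a mean of 117.3 TPM over the 9 libraries and a Log2FC of -0.06 (SE 0.19, edgeR, adjusted p = 0.902) in MAT vs CYST. It overlaps a gene listed only by identifier on the opposite strand. ELOVL7 had a Log2FC of -0.05 (adjusted p = 0.959). ELOVL3 and ELOVL4 had at most 5 and 7 counts in any library.

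HACD2 and HACD3, the other abundant dehydratases, were the main members of their family in CYST. HACD4 held 6.44% ± 2.12 of the HACD family in CYST, 27.7% ± 2.67 in MAT and 27.3% ± 2.82 in MAT + COL. HACD2 held 54.7% ± 8.46 in CYST, 38.7% ± 4.54 in MAT and 37.9% ± 2.08 in MAT + COL, with a Log2FC of -0.71 (SE 0.20, edgeR, adjusted p = 0.0974) in MAT vs CYST. The summed TPM of the family overlapped between groups, at 133.9 to 234.6 in CYST, 136.7 to 198.2 in MAT and 162.3 to 222.0 in MAT + COL.

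FABP3 held 89.5% ± 4.15 of the FABP family in CYST, 51.1% ± 3.87 in MAT and 47.4% ± 19.9 in MAT + COL. The family sum was between 77.8 and 173.1 TPM in CYST, between 21.3 and 36.9 TPM in MAT and between 21.8 and 31.6 TPM in MAT + COL. Besides FABP3 and FABP5, no FABP gene exceeded 10 counts. FABP1, FABP6, FABP9, FABP12 and PMP2 had 0 counts in all 9 libraries, and FABP2, FABP4 and FABP7 had at most 2, 10 and 4 counts in any library. A count of 0 allows up to 3 counts in a library, so low levels of these genes were not detectable at this depth.

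**Figure D3:**
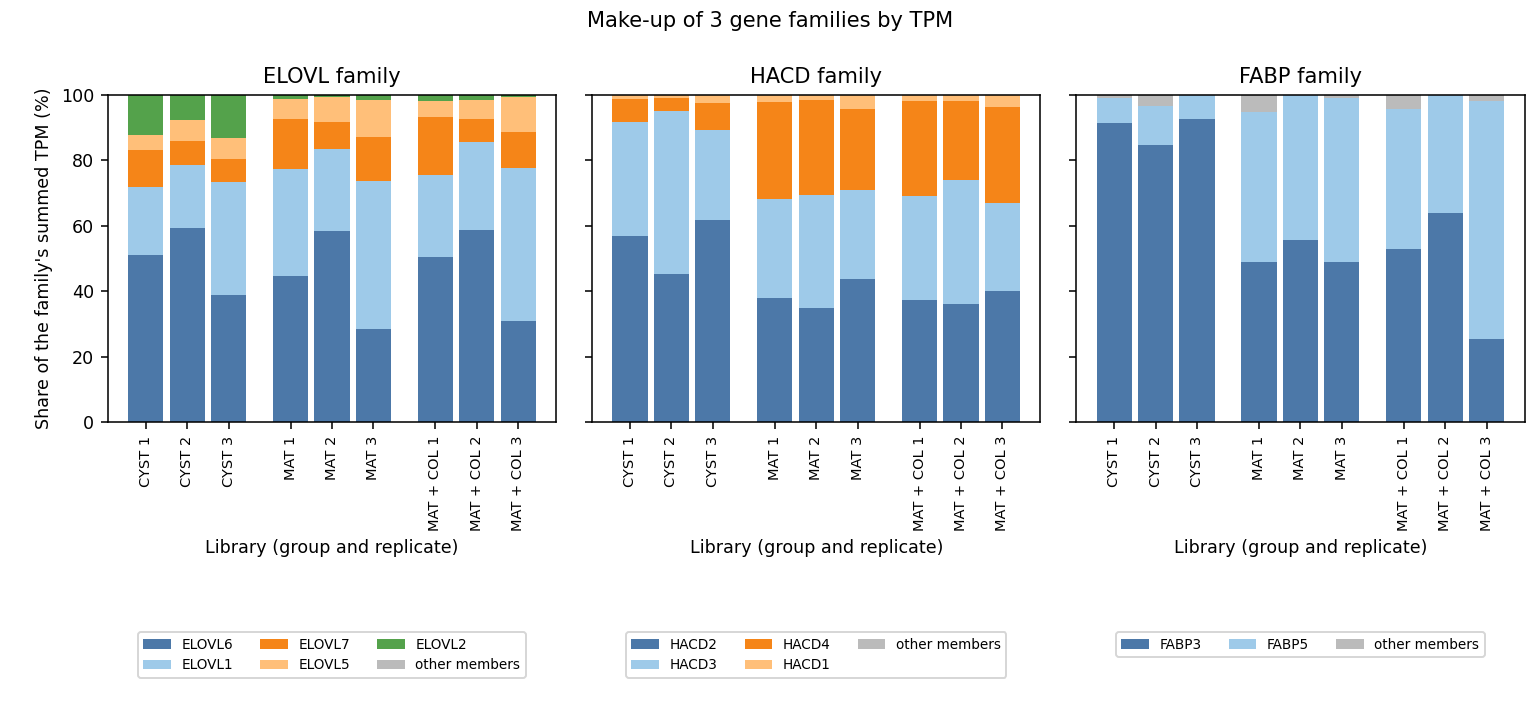
Share of each gene in the summed TPM of its family (%, stacked bars from 0 to 100), 1 bar per library, for the ELOVL, HACD and FABP families. ELOVL2 and FABP3 take a smaller share and HACD4 a larger share in all 6 EGF libraries than in the 3 CYST libraries.

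For several of the 10 genes the replicate number held more of the variance than the group, which covers collagen I as well as EGF. Over the 9 libraries, the group held 88.6% of the variance of log2 CPM of ELOVL2, 91.3% for FABP3 and 90.1% for HACD4. For FABP5 the group held 0.429% and the replicate number 87.6%, and for ELOVL6 the group held 25.2% and the number 72.3%. The number held more than the group for FADS1 (50.3% against 28.4%), ELOVL5 (42.6% against 16.9%), SCD (38.1% against 31.5%) and FASN (21.4% against 14.9%) as well. FADS2 was nearly even, at 33.4% against 35.8%. The median over all genes was 29.9% for the group and 32.6% for the number. Both shares of FASN lay under these medians and those of SCD lay near them, so neither gene stands out by its number. These shares are descriptive, since the 3 genes with large shares for the group had been picked for the EGF difference.

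With EGF, replicate 3 differed from the other numbers in its ratio of ELOVL6 to FASN transcripts. The ratio of ELOVL6 to FASN in TPM was between 1.98 and 2.35 in CYST, where all 3 libraries were alike. With EGF it was 1.95, 3.18 and 0.514 in MAT and 3.85, 4.12 and 0.541 in MAT + COL. The ratio of SCD to ELOVL6 was likewise highest in replicate 3, at 7.57 in MAT and 5.97 in MAT + COL, but it was also highest there in CYST, at 3.62. The labels do not say whether the replicates of a number share an animal. With 1 library per number and group, whether the EGF difference varies with the number cannot be tested. A difference between the numbers themselves was not tested.

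**Figure D4:**
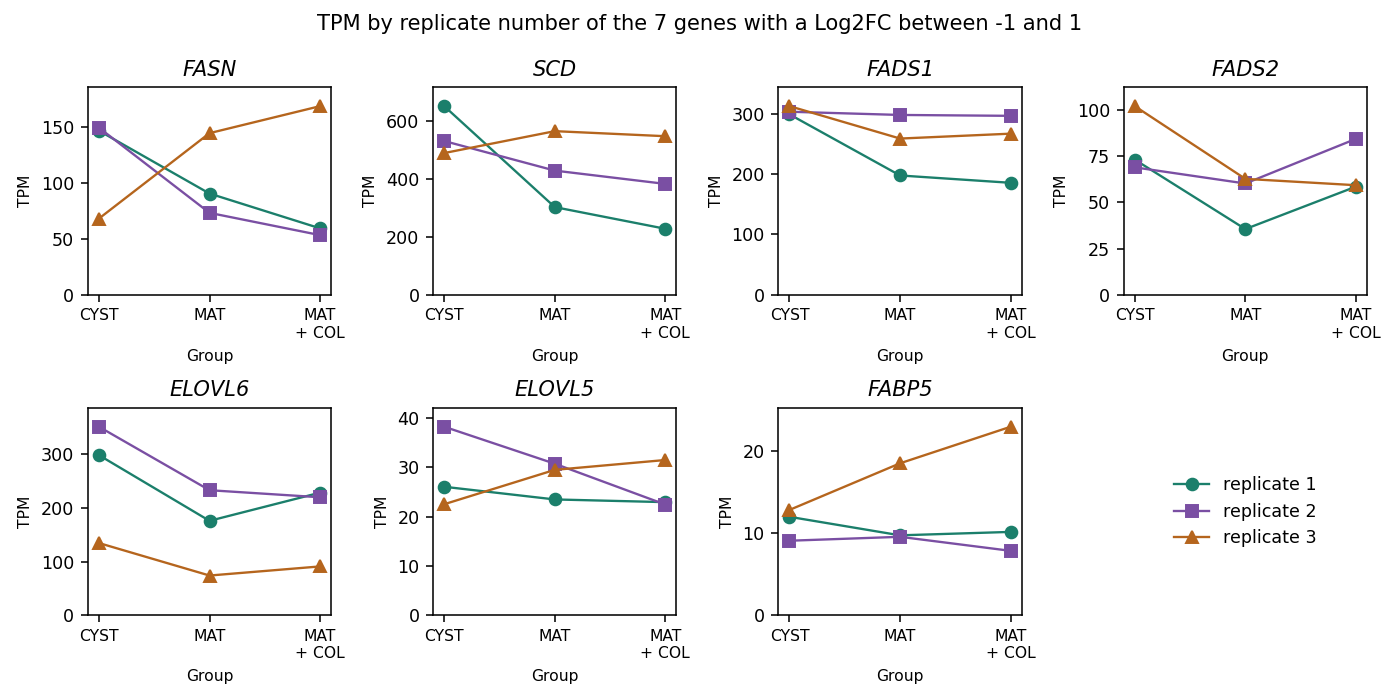
TPM (linear axes from 0) of the 7 genes with a Log2FC between -1 and 1 in the EGF comparisons, in the 3 groups, with a line joining the libraries of each replicate number. FASN is lower with EGF in replicates 1 and 2 and higher in replicate 3, whereas ELOVL6 is lower in MAT than in CYST at all 3 numbers.

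Collagen I was added to EGF cultures to ask what the matrix changes. Between MAT + COL and MAT, none of the 10 genes had an adjusted p under 0.05 (edgeR, adjusted p = 1 for each), and no gene of the 12470 tested did (0%). DESeq2 and limma called 0 of the 10 as well. The Log2FC ran from -0.33 (SE 0.33) for FABP3 to 0.26 (SE 0.28) for FADS2, with 5 genes above 0 and 5 under 0. The TPM of the groups overlapped for all 10 genes, where it did not overlap for 3.57% of all genes tested. At an unadjusted p under 0.05, 0 of the 10 genes and 0.409% of all genes passed. With the replicate number as a block, 4.96% of all genes did. The fit without the block was thus conservative here, and its lack of calls says little about small differences.

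With the replicate number as a block, FASN and SCD, which were lower in MAT + COL than in MAT by -0.36 (SE 0.16, unadjusted p = 0.0471) and -0.28 (SE 0.12, unadjusted p = 0.0378), passed unadjusted, where 4.96% of all genes did. Their adjusted p stayed at or above 0.955 (edgeR). For ELOVL2 the same-numbered libraries went apart, with log2 ratios of MAT + COL to MAT of 0.78, 1.02 and -1.71, and for FABP3 they were 0.27, 0.23 and -1.17. Replicate 3 was the lowest MAT + COL library for both genes. A p that misses the threshold does not show that collagen I left these genes alike, and without the block the standard error was larger than the difference for each of the 10 genes.

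Other genes of fatty acid metabolism were taken by textbook function as 10 lists of 139 genes, of which 134 were listed in the files and 111 had enough counts to be tested in MAT vs CYST. Of these 111, 2 were called and both were higher in MAT, which was 1.80% against 1.79% of all genes. Their median Log2FC was -0.03, against 0.01 over all genes. In MAT + COL vs CYST 2 of 113 were called, 1 in each direction, and in MAT + COL vs MAT 0 of 114 were called (edgeR, and 0 with the block). With the replicate number as a block, 22 of the 111 passed in MAT vs CYST, 13 higher and 9 lower, or 19.8% against 10.6% of all genes. In MAT + COL vs CYST the block gave 11 of 113, 6 higher and 5 lower, or 9.73% against 5.26%. The lists were chosen with earlier results of these data known, so nothing is read from these shares.

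CIDEB, a protein of lipid droplets and lipoprotein particles, rose in both EGF groups. It was read at 17.3, 29.3 and 14.3 TPM in CYST, at 109.6, 82.2 and 42.6 TPM in MAT and at 77.2, 80.0 and 55.0 TPM in MAT + COL, without overlap. The Log2FC was 1.94 (SE 0.37, edgeR, adjusted p = 0.0473) in MAT vs CYST and 1.75 (SE 0.27, adjusted p = 0.0373) in MAT + COL vs CYST. CIDEB overlaps LTB4R2 and NOP9 on the opposite strand, so that some of its reads may belong to them.

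FADS6, a relative of the FADS desaturases whose substrate is less well known, rose in MAT, from 8.18, 8.38 and 11.2 TPM in CYST to 23.6, 29.1 and 28.2 TPM. The Log2FC was 1.5 (SE 0.26, edgeR, adjusted p = 0.0434). In MAT + COL it had 19.5, 32.2 and 22.8 TPM, and a Log2FC of 1.34 (SE 0.30) that passed only with the block (adjusted p = 0.0675 without and 0.0437 with it).

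ACSL4, which activates arachidonic acid to its CoA form, fell in MAT + COL vs CYST, by 1.33 on the log2 scale (SE 0.24, edgeR, adjusted p = 0.0476). It had 452.9, 278.9 and 339.3 TPM in CYST, 127.5, 102.1 and 183.9 TPM in MAT, and 186.3, 127.2 and 137.7 TPM in MAT + COL. Both EGF groups lay under CYST in every library. In MAT vs CYST the Log2FC of -1.38 (SE 0.30) passed only with the block (adjusted p = 0.0616 without and 0.00915 with it). ACSL5, the most abundant gene of uptake and activation, had a Log2FC of -0.03 (SE 0.24, adjusted p = 0.962) in MAT vs CYST.

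Among the genes that passed only with the block in MAT vs CYST and whose Log2FC in that fit was above 1 or below -1, lower ones came from several steps. ME1, a source of NADPH for synthesis, had a Log2FC with the block of -1.39 (SE 0.28). SLC27A2, an acyl-CoA synthetase of fatty acid uptake, had -2.45 (SE 0.60). Its counts were low, at 37, 51 and 1 in MAT against 168, 190 and 39 in CYST, and its TPM overlapped between these groups. CPT1A and SLC25A20, which bring acyl groups into mitochondria, had -1.27 (SE 0.29) and -1.89 (SE 0.49), and MBOAT2 and AGPAT5, acyltransferases of phospholipids, had -1.21 (SE 0.21) and -1.39 (SE 0.33). The adjusted p with the block of these lower genes ran up to 0.0498 (edgeR). For ME1 the TPM overlapped too, at 14.9 to 89.8 in CYST and 11.7 to 24.8 in MAT. For CPT1A the lowest CYST library had 4.79 TPM and the highest MAT library 4.86 TPM.

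Higher ones in the same fit were ECI1, an isomerase of beta-oxidation, with 1.37 (SE 0.17), the lipase gene PNPLA2 with 1.31 (SE 0.33) and G0S2, the inhibitor of that lipase, with 1.82 (SE 0.45). G0S2 shares its locus with HSD11B1 on the same strand and with C16H1orf74, so its reads are uncertain. Its counts were low, at 32, 21 and 67 in CYST and 192, 37 and 270 in MAT, and its TPM overlapped between these groups. The transporter and synthetase gene SLC27A5 had 1.31 (SE 0.31), the acyltransferase MBOAT1 had 1.17 (SE 0.25), and MLXIP, a glucose-sensing transcription factor, had 1.31 (SE 0.26). For MBOAT1 the TPM overlapped as well, with a highest value of 17.9 in CYST and a lowest of 17.3 in MAT. Of these genes with the block, ME1, SLC27A2, MBOAT2, MLXIP and MBOAT1 also passed with a Log2FC above 1 or below -1 in MAT + COL vs CYST.

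Of the transcription factors named for these pathways, SREBF1, NR1H3, PPARA and PPARD passed in no comparison, with or without the block. SREBF1, which drives FASN, SCD and the FADS genes, had 40.4, 56.3 and 40.0 TPM in CYST and 28.7, 41.5 and 40.5 TPM in MAT, with a Log2FC of -0.30 (SE 0.22, edgeR, adjusted p = 0.471). It overlaps RAI1 on the opposite strand. NR1H3, a sterol-sensing receptor, had -0.56 (adjusted p = 0.388), PPARA had -0.41 (adjusted p = 0.606) and PPARD had -0.32 (adjusted p = 0.803). MLXIPL had at most 2 counts in any library, and PPARG was not analysed here.

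The most abundant genes of the lists had a Log2FC between -1 and 1 in MAT vs CYST. DBI, the acyl-CoA binding protein, had a mean of 973.5 ± 202.8 TPM in CYST and 598.2 ± 92.0 TPM in MAT (SD, n = 3), with a Log2FC of -0.70 (SE 0.20, edgeR, adjusted p = 0.110, and 0.0388 with the block). LPCAT3, which places polyunsaturated fatty acids in phospholipids, had a Log2FC of -0.74 (SE 0.22, adjusted p = 0.111, and 0.0328 with the block). TECR, the last enzyme of the elongation cycle, had a Log2FC of -0.51 (SE 0.17, adjusted p = 0.136). ACLY, which supplies acetyl-CoA, had -0.04 (SE 0.21), and CYB5R3, which passes electrons to the desaturases, had -0.10 (SE 0.19). The lipid droplet coat gene PLIN2 had 0.50 (SE 0.47), the beta-oxidation gene ACADVL 0.05 (SE 0.18), the peroxisomal SCP2 0.44 (SE 0.22), and the sterol receptor NR1H2 0.33 (SE 0.20). None of ACLY, CYB5R3, PLIN2, ACADVL, SCP2 and NR1H2 was called with or without the block in MAT vs CYST. DBI, LPCAT3, ACADVL and SCP2 overlap other genes on the opposite strand, so some of their reads may belong to those.

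**Figure D5:**
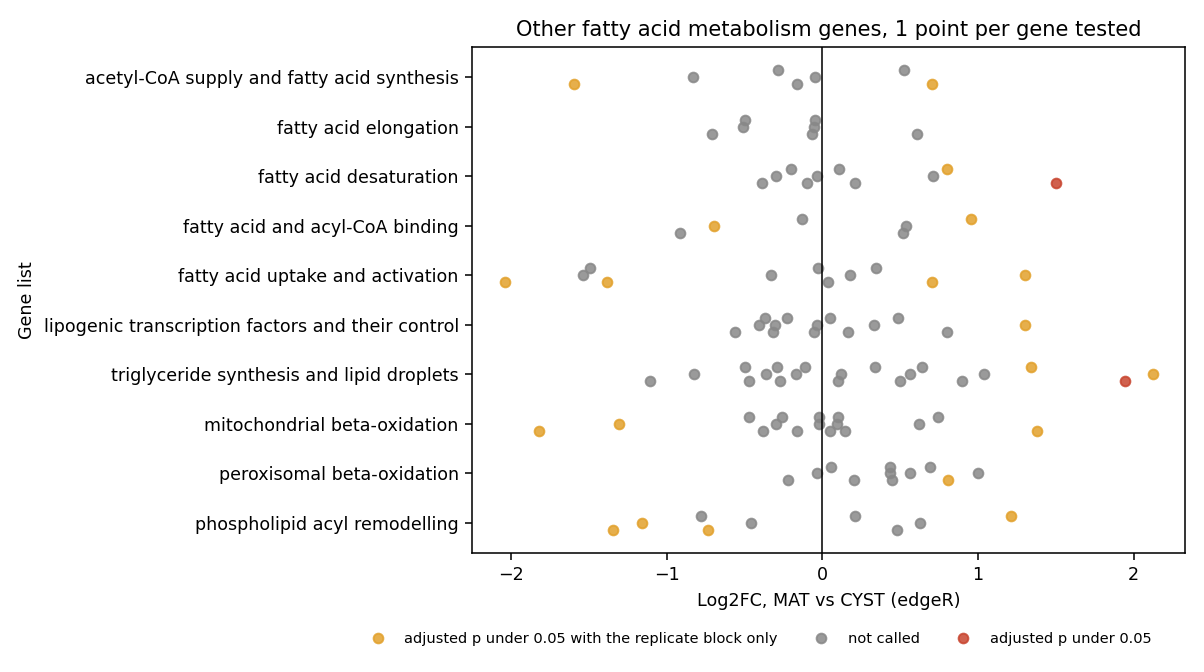
Log2FC (edgeR) of MAT vs CYST for the 111 tested genes of 10 fatty acid metabolism lists, the 10 genes described above left out, 1 point per gene and 1 row per list. Points lie on both sides of 0 in every list, 2 genes are called without the block (CIDEB and FADS6), and 20 more with it.

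By list in MAT vs CYST without the block, desaturation had 1 of 10 tested genes higher (FADS6) and triglyceride synthesis and lipid droplets 1 of 20 (CIDEB). In acetyl-CoA supply and synthesis 0 of 7 were called, in elongation 0 of 7, in binding 0 of 6, in uptake and activation 0 of 11, in transcription factors and their control 0 of 14, in mitochondrial beta-oxidation 0 of 16, in peroxisomal beta-oxidation 0 of 11, and in phospholipid acyl remodelling 0 of 9. With the block, triglyceride synthesis and lipid droplets had 3 higher and 0 lower, and desaturation 2 higher and 0 lower. Uptake and activation had 2 higher and 2 lower, phospholipid remodelling 1 higher and 3 lower, and mitochondrial beta-oxidation 1 higher and 2 lower. Synthesis and binding each had 1 higher and 1 lower, transcription factors and peroxisomal beta-oxidation each had 1 higher and 0 lower, and elongation had 0. In peroxisomal beta-oxidation 9 of 11 genes had a Log2FC above 0, with a median of 0.44, and in elongation 6 of 7 had one under 0, with a median of -0.07.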

How the data were processed

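Reads were trimmed and mapped by the authors with CLC Genomics Workbench. The authors deposited raw read counts per gene. A deposited table of TPM covers the same genes and libraries. The annotation release and the strand setting are not given in the sources used here. Gene positions were taken from the deposited files, which match ARS-UCD2.0. The 10 members and the lists were chosen with earlier results of these data known.

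Counts were tested in R 4.3.3 with edgeR 4.0.16 (filterByExpr with a minimum count of 10, TMM, glmQLFit and glmQLFTest, two-sided) for each comparison on its own 6 libraries, and p-values were adjusted over all genes tested by Benjamini-Hochberg. A gene was called at an adjusted p under 0.05. TPM values, as deposited, gave levels, shares and ratios, and shares of variance used log2 CPM with a prior count of 2. Reads came from PCR without molecular identifiers, so the limit of 3 counts for a gene at 0 covers counting error only.

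Named genes were the 10 members, their paralogs, 6 lipogenic transcription factors, the most abundant gene of each pathway list, and list genes called without the block, or called with it at a Log2FC above 1 or below -1. Smooth muscle genes and individual list members outside this rule were named after their values were seen. ACACB, ADIPOQ, ETFB, HADH, HILPDA and PPARG were not analysed here.

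Deviations from the group mean correlated between same-numbered libraries at 0.329, 0.437 and 0.396 in MAT vs CYST, 0.471, 0.613 and 0.687 in MAT + COL vs MAT, and 0.278, 0.350 and 0.347 in MAT + COL vs CYST. All exceeded 0.1, so the numbers were taken to pair the libraries. Between differently numbered libraries the correlations ran from -0.524 to 0.111. The highest, MAT + COL replicate 1 with CYST replicate 2, also exceeded 0.1, so the threshold alone does not identify pairs. The pairing comes from the replicate numbers of the labels. No replicates were duplicates.

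Alternatives were DESeq2 1.42.0, the replicate block, other size factors, no filter on low counts, all 9 libraries in the fit, limma 3.58.1 on log2(TPM + 1), a pseudocount of 0.1, and leaving out each library. The tests were checked on simulated data. Figures used matplotlib 3.10.9 in Python 3.11.15.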

Additional observations from a re-analysis of the deposited data

How the results depend on the processing

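ELOVL2 and FABP3 stayed lower and HACD4 higher than CYST under all 14 alternatives in both EGF comparisons. These genes were chosen with that difference known, and their EGF and CYST libraries do not overlap. Refits of the same libraries could therefore hardly change its direction, and nothing is read from this. What changed was how many genes passed. Under the replicate block, 1277 genes were called in MAT vs CYST (216 without) and 658 in MAT + COL vs CYST (186 without), and the genes of the pathway lists rose from 2 to 22 and from 2 to 11. Among the 10 members the block changed no call other than that of ELOVL6 in MAT vs CYST, and it reversed the Log2FC of FABP5 in MAT + COL vs MAT (-0.040). DESeq2 called 1278 and 1500 genes in the EGF comparisons and 21 and 22 of the pathway lists. With all 9 libraries in the fit, 580 and 601 genes and 9 and 9 of the lists were called. limma on log2(TPM + 1) without a filter called 71 and 53 genes and 0 and 0 of the lists. It left 1 member called in MAT + COL vs CYST (main value 3). The cause of these differences was not tested.

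With 1 library left out, 5 to 267 genes were called in MAT vs CYST and 3 to 186 in MAT + COL vs CYST, with 1 to 3 and 0 to 3 members and 0 to 2 and 0 to 1 genes of the lists. These fits have fewer samples. Counts for MAT + COL vs MAT were 0 in every fit. In MAT vs CYST the sign turned in some of these fits for ELOVL5 (-0.11 to 0.17), FABP5 (-0.29 to 0.36) and FASN (-0.56 to 0.00034), and in MAT + COL vs CYST for FABP5 (-0.47 to 0.47). In MAT + COL vs MAT it turned for FABP5 (-0.62 to 0.48), ELOVL2 (-0.27 to 0.68), ELOVL6 (-0.26 to 0.44), HACD4 (-0.16 to 0.16), FADS1 (-0.24 to 0.14), SCD (-0.61 to 0.078) and FASN (-0.99 to 0.18). None of these had been called. Depth limits the values of low genes, such as ELOVL2 at 38 to 244 and FABP5 at 55 to 325 counts per EGF library.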

Other observations

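In MAT + COL, 3 genes had their highest level in replicate 1. CPT1A was read at 23.0, 4.99 and 1.40 TPM in MAT + COL replicates 1, 2 and 3, against 4.79 to 12.7 TPM in CYST and 2.78 to 4.86 TPM in MAT. SLC25A20 had 10.3, 4.21 and 2.88 TPM in MAT + COL, against 6.70 to 11.7 TPM in CYST and 1.42 to 3.61 TPM in MAT. NR1H3 had 17.9, 7.63 and 7.81 TPM in MAT + COL, against 9.24 to 13.8 TPM in CYST and 6.19 to 9.29 TPM in MAT. These genes were picked after their values were seen from lists in which other genes differ, and the pattern rests on 1 library.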
